A study of Mus musculus with 2 samples.

Results

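The microRNA genes Mir103-1, Mir103-2 and Mir107, which lie inside the pantothenate kinase genes Pank3, Pank2 and Pank1, and Mir33, which lies inside the sterol regulator gene Srebf2, were examined in C2C12 myocytes. They were chosen by name and host gene, and all 4 were found among the 2202 microRNA genes of the deposited tables. C2C12 is a mouse myoblast line obtained from crush-injured thigh muscle of C3H mice; its cells stop dividing and become muscle cells when differentiation is induced. The series held 2 microRNA libraries of such cells after 72 h of differentiation, labelled biological replicates 1 and 2, with the same source and treatment. There was thus 1 group and no contrast between conditions, and the line is a culture model of muscle rather than muscle tissue. The labels are silent on whether these were separate cultures, so SDs measure only the spread between these libraries, which may be technical. The p-values set a difference between these libraries against counting error alone and take no account of that spread.

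The pantothenate kinases carry out the first committed step of coenzyme A synthesis. miR-103 and miR-107, made from their introns, are known as regulators of insulin sensitivity, acting in part through caveolin-1, and of Dicer. Srebf2 encodes the transcription factor SREBP-2, which switches on cholesterol synthesis and uptake, and miR-33 from its intron represses the cholesterol exporter Abca1 and genes of fatty acid oxidation. A microRNA recognises its targets mainly through its seed, bases 2 to 8 from the 5′ end.

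The mature sequences are shown because they decide which reads can be told apart. They come from RefSeq (GRCm38.p6, the mm10 assembly), in which all 4 genes were matched, and the capitals mark the seed.

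miR-103-3p, from Mir103-1 and from Mir103-2: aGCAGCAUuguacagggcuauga
miR-107-3p: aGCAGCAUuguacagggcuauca
miR-103-1-5p: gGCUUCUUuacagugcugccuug
miR-103-2-5p: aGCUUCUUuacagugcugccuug
miR-107-5p: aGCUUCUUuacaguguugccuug
miR-33-5p: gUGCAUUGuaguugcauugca
miR-33-3p: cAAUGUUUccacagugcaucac

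The 3p arms of Mir103-1 and Mir103-2 were the same in all 23 bases. The 3p arm of Mir107 had the same seed and differed from them by a single substitution, G22C, with the miR-103-3p base first and positions counted from the 5′ end. The 5p arms also shared a seed (GCUUCUU). Taking the 5p arm of Mir103-2 as the reference, Mir103-1 carried A1G and Mir107 carried C16U. Among the 1738 mature entries of the RefSeq table, no microRNA outside these 3 genes had the seed GCAGCAU or GCUUCUU, and none outside Mir33 had UGCAUUG or AAUGUUU.

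The whole hairpins show where the 3 related genes part. Here the capitals mark the annotated 5p and 3p arms.

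Mir103-1 (ENSMUSG00000065553.1, chr11:35782396-35782481, plus strand): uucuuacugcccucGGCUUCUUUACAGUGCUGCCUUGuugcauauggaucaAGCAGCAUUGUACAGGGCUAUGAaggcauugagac
Mir103-2 (ENSMUSG00000065563.1, chr2:131288052-131288137, plus strand): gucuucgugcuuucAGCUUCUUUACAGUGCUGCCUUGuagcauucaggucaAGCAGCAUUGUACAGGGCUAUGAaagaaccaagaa
Mir107 (ENSMUSG00000065594.1, chr19:34820687-34820773, minus strand): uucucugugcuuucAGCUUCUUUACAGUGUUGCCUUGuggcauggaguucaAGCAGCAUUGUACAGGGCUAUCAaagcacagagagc
Mir33 (ENSMUSG00000065465.1, chr15:82198122-82198190, plus strand): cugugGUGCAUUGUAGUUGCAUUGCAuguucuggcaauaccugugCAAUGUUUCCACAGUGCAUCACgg

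Outside the arms the related hairpins differed more, in the loop and at both ends. Mir103-1 and Mir103-2 were identical at 69 of 86 aligned positions (80.2%). Mir103-2 and Mir107 were identical at 73 of 87 (83.9%), and Mir103-1 and Mir107 at 70 of 87 (80.5%). The predicted folding energy was lowest for Mir107 (−41.2 kcal/mol), against −35.8 for Mir103-1, −32.2 for Mir33 and −31.8 for Mir103-2. The median over the 2202 hairpins was −33.2 kcal/mol. The Mir33 hairpin is shorter, with 69 bases against 86 or 87. Per base, the energy was −0.474 kcal/mol for Mir107, −0.467 for Mir33, −0.416 for Mir103-1 and −0.370 for Mir103-2.

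In their principal transcripts the 3 pantothenate kinase genes carry their microRNA in the same intron by number. In the GENCODE M21 annotation each of the 4 microRNA genes lies in an intron, on the host's strand, and overlaps no other annotated gene on either strand. Mir107 lies in intron 5 of 6 of the principal Pank1 transcript, 326 bases after the upstream exon. Mir103-2 lies in intron 5 of 6 of the principal Pank2 transcript, 454 bases after the upstream exon, and Mir103-1 in intron 5 of 6 of that of Pank3, 688 bases after it. Mir33 lies in intron 16 of 18 of the Srebf2 transcript ENSMUST00000023100.7, 335 bases after the upstream exon. In other Srebf2 transcripts that intron is 17 of 20 or 3 of 5, and none of those listed is marked principal. Small-RNA libraries do not measure the host transcripts, so host and microRNA levels could not be compared.

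These sequences set what the counts can hold. In the layout of the deposited tables, a read that fits more than 1 place enters a multi-mapped entry and no gene. A read starting at the first base of miR-103-3p and following the hairpin fitted all 3 hairpins at 16 to 21 bases and both Mir103 hairpins at 22 to 24 bases. It fitted a single hairpin only from 25 bases, which is longer than the annotated arm of 23. A read from the first base of miR-107-3p fitted all 3 hairpins up to 21 bases and Mir107 alone from 22. Reads from the first base of miR-103-1-5p, miR-103-2-5p or miR-107-5p, and of both arms of Mir33, fitted their own hairpin alone at every length tried, from 16 bases up. The counts of the Mir103 genes and Mir107 can thus hold 5p reads, and the arms are not separated in the tables. Only reads from the first base of an arm were tried. The 5p arms of Mir103-1 and Mir103-2 differ in that base alone, so a 5p read without it can fit both. Exact matches to annotated hairpins were searched, not the whole genome. Under that layout, reads of the full miR-103-3p arm are given to neither Mir103 gene, and the level of miR-103-3p itself is not measured by these counts.

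**Figure D1:**
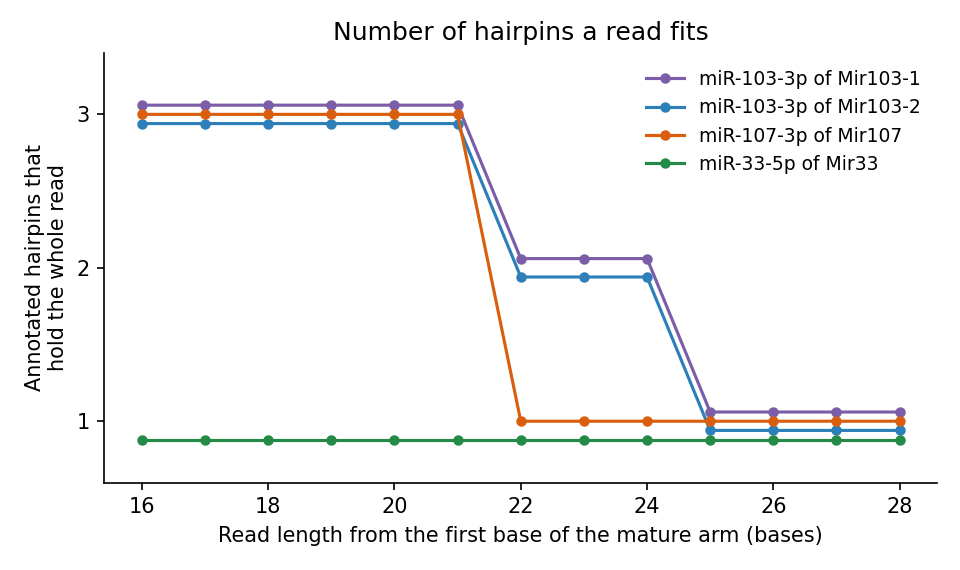
Number of annotated microRNA hairpins (vertical axis) that hold a whole read starting at the first base of the arm, by read length in bases (horizontal axis); lines are shifted slightly so that they do not hide each other. The lines of miR-103-3p fall from 3 to 2 at 22 bases and to 1 at 25, that of miR-107-3p falls from 3 to 1 at 22, and that of miR-33-5p stays at 1.

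Replicate 1 had 15349205 reads and replicate 2 had 18450359, and 7581366 (49.4%) and 9865298 (53.5%) of them counted on the sense strand of microRNA genes. Multi-mapped reads were 22.01% and 17.9% of all reads. Levels are given as CPM, counts per 1000000 assigned sense counts, and detection required 10 or more counts in both libraries, which 314 genes met. The muscle list fixed as a check of the cell type, led by Mir206, had 5 of 7 genes detected and a summed level of 355023 CPM in replicate 1 and 427749 CPM in replicate 2. Mir206 alone had a mean of 378817 CPM, so it made up most of this sum. The muscle genes not detected were Mir133a-1, with 9 and 28 counts, and Mir133a-2, with 8 and 10. Both share at least 20 bases with another hairpin, so their counts are uncertain. The 5 pluripotent markers had no count. Of the neural markers 5 of 6 were at 0 (Mir124a-1, Mir124a-2, Mir124a-3, Mir9-1 and Mir9-2), and the epithelial markers summed to 4.35 and 2.13 CPM, with Mir200a and Mir429 at 0. The liver marker Mir122 had 1.06 and 0.405 CPM.

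Mir107 was the most abundant of the 4 genes on average. It had 6905 counts in replicate 1 and 876 in replicate 2, or 911 CPM (95% exact Poisson interval 889 to 933) and 88.8 CPM (83.0 to 94.9). The mean was 500 ± 581 CPM (SD, n = 2), so the SD exceeded the mean, and the value stands for no typical level. Mir107 held rank 73 of all microRNA genes in replicate 1 and rank 135 in replicate 2. These intervals, like all those below, cover counting error only, since the reads carry no molecular identifiers as far as the sources say.

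Mir33 had 684 counts in replicate 1 and 2149 in replicate 2. Its levels were 90.2 CPM (83.6 to 97.2) and 218 CPM (209 to 227), with a mean of 154 ± 90.2 CPM (SD, n = 2) and ranks 136 and 106. In replicate 2 it was the most abundant of the 4 genes, and in replicate 1 it was second to Mir107.

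The pair of Mir103 genes had few counts, and these hold no reads of the plain miR-103-3p arm if the tables were made as their layout implies. Mir103-2 had 203 and 196 counts, or 26.8 CPM (23.2 to 30.7) and 19.9 CPM (17.2 to 22.9), a mean of 23.3 ± 4.89 CPM (SD, n = 2) and ranks 180 and 177. It was the steadiest of the 4. Mir103-1 had 19 and 5 counts, or 2.51 CPM (1.51 to 3.91) and 0.507 CPM (0.165 to 1.18), and fell short of the detection minimum in replicate 2.

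**Figure D2:**
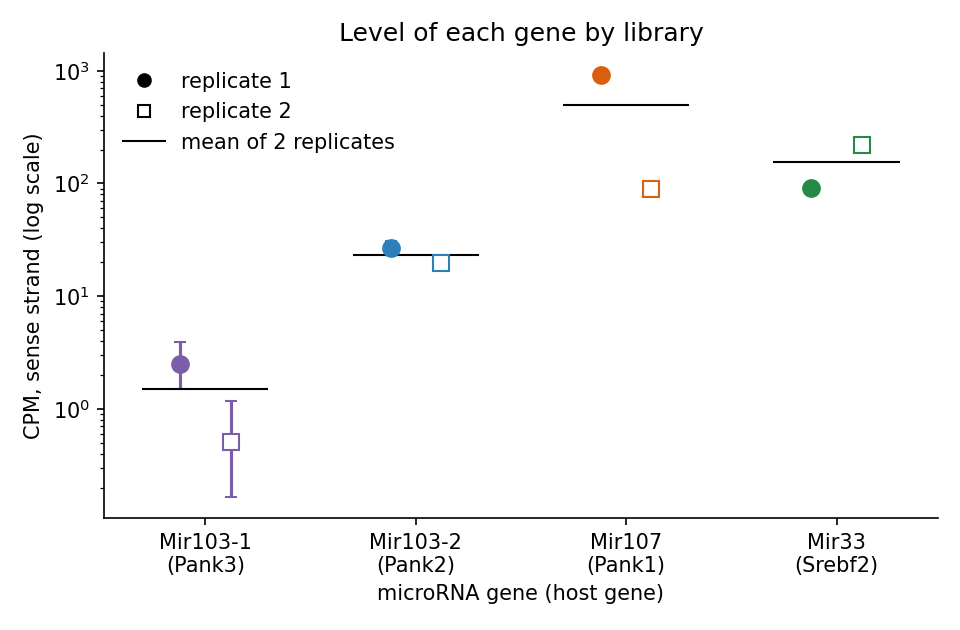
Level of each gene in CPM on a log axis, with filled circles for replicate 1, open squares for replicate 2, error bars for the 95% exact Poisson interval (smaller than the symbol where not seen) and a line at the mean. Mir107 spans 88.8 to 911 CPM, Mir33 90.2 to 218, Mir103-2 19.9 to 26.8 and Mir103-1 0.507 to 2.51.

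In replicate 1 the order from high to low was Mir107, Mir33, Mir103-2, Mir103-1. In replicate 2 Mir33 came before Mir107, and the Mir103 genes kept their places. The Mir107 count was 10.1 times that of Mir33 in replicate 1, and the Mir33 count was 2.45 times that of Mir107 in replicate 2. Dividing by hairpin length, from 69 bases for Mir33 to 87 for Mir107, gave the same orders: 10.5 and 1.31 CPM per base for Mir107 and Mir33 in replicate 1, and 1.02 and 3.16 in replicate 2. The mean levels of Mir107 and Mir33 are thus not separated beyond the spread between the libraries. Each was above Mir103-2, and Mir103-2 above Mir103-1, in both libraries. These are orders of assigned counts. Under the layout described above, reads of the full miR-107-3p arm enter Mir107, while those of the full miR-103-3p arm enter neither Mir103 gene. The place of miR-103-3p itself is therefore not known.

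Among all detected genes the nearest neighbours of the members in the order of mean level also lay within the spread. Mir107 (500 ± 581 CPM) stood between Mir20a with 518 ± 572 CPM and Mir181a-1 with 472 ± 129 CPM. Mir33 (154 ± 90.2) stood between Mir1983 with 173 ± 7.10 and Mir3102 with 152 ± 41.0. Mir103-2 (23.3 ± 4.89) stood between Mir32 with 24.96 ± 25.7 and Mir1249 with 21.003 ± 0.889 (SD, n = 2 for each).

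None of the 4 genes had a count on the antisense strand in either library, like 2106 of the 2202 microRNA genes. The either-strand count equalled the sense count for each of the 4. Where no antisense count was seen, 3 counts, the limit that a count of 0 allows, correspond to 0.396 CPM for replicate 1 and to 0.304 for replicate 2.

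The libraries were then compared gene by gene with an exact two-sided binomial test that took the library totals as given. The p-values were adjusted over the 314 detected genes (Benjamini-Hochberg, threshold 0.05). The test compares these libraries, not conditions. It called 209 genes (66.6%), of which 120 were higher in replicate 1 (38.2% of those tested) and 89 higher in replicate 2 (28.3%). All 3 detected members were called, 2 higher in replicate 1 and 1 higher in replicate 2. With so many genes called, a call alone sets no member apart, and the size of the ratio is more informative.

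Mir107 had the largest ratio of the 314 detected genes in either direction. Its 911 CPM in replicate 1 against 88.8 in replicate 2 make a 10.3-fold difference (95% exact interval 9.56 to 11.02; log2 ratio 3.36; adjusted p 0 to the precision of the exact calculation). Only Gm23935, a predicted microRNA gene with 548 and 71 counts singled out after its values were seen, also reached 10-fold. The median absolute log2 ratio of the detected genes was 0.51, and 245 of them lay within 2-fold.

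Mir33 moved the other way. Its level was 2.41-fold higher in replicate 2 (95% exact interval 2.21 to 2.64; log2 ratio −1.27, replicate 1 over replicate 2; adjusted p = 4.73e-101 in the exact binomial test), the ninth place from the replicate 2 end and place 41 by absolute ratio. Relative to each other, Mir107 and Mir33 changed 24.8-fold between the libraries.

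Mir103-2 differed least. It was 1.35-fold higher in replicate 1 (1.10 to 1.65; log2 ratio 0.43; adjusted p = 0.00557 in the exact binomial test), place 179 by absolute ratio. This call depended on the denominator: with Mir206, which takes the largest share of each library, left out of the totals, the log2 ratio was 0.25 and the adjusted p 0.113. Mir103-1 was not tested at the minimum of 10 counts. With a minimum of 1 count, 555 genes were tested and Mir103-1 was 4.94-fold higher in replicate 1, with an interval of 1.79 to 16.9 and an adjusted p of 0.00183 in the same exact test.

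**Figure D3:**
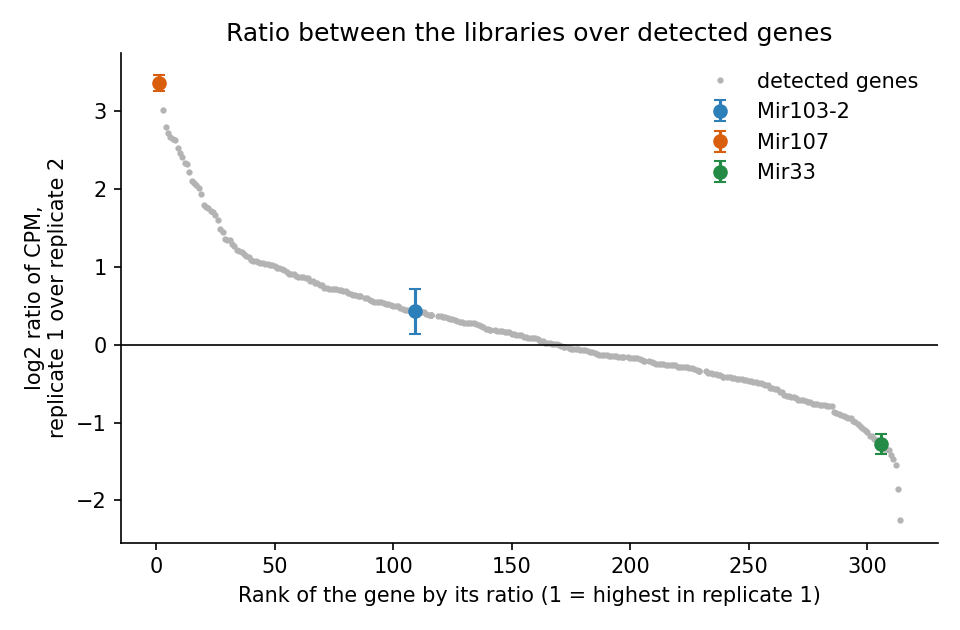
Log2 ratio of CPM, replicate 1 over replicate 2 (vertical axis), of the 314 detected genes in order of that ratio (horizontal axis), with 95% exact intervals for the members. Mir107 is at the replicate 1 end with 3.36, Mir103-2 in the upper middle with 0.43 and Mir33 near the replicate 2 end with −1.27.

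Within the 3 related genes the make-up of the assigned counts differed between the libraries. Together the 3 genes had 7127 counts in replicate 1 and 1077 in replicate 2, or 940 and 109 CPM (mean 525 ± 588, SD, n = 2). The sum was 8.61-fold higher in replicate 1 (95% exact interval 8.08 to 9.19). Mir107 made up 96.9% of this sum in replicate 1 (95% exact Clopper-Pearson interval 96.5 to 97.3) and 81.3% in replicate 2 (78.9 to 83.6). The share of Mir103-2 was 2.85% (2.47 to 3.26) and 18.2% (15.9 to 20.6). The Mir107 count was 34.0 times the Mir103-2 count in replicate 1 and 4.47 times in replicate 2. The 3 genes share at least 20 bases with one another, as 80 of the 314 detected genes do with some hairpin, and their counts are uncertain to that extent. The share of multi-mapped reads was also higher in replicate 1, and its part in these ratios was not tested.

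**Figure D4:**
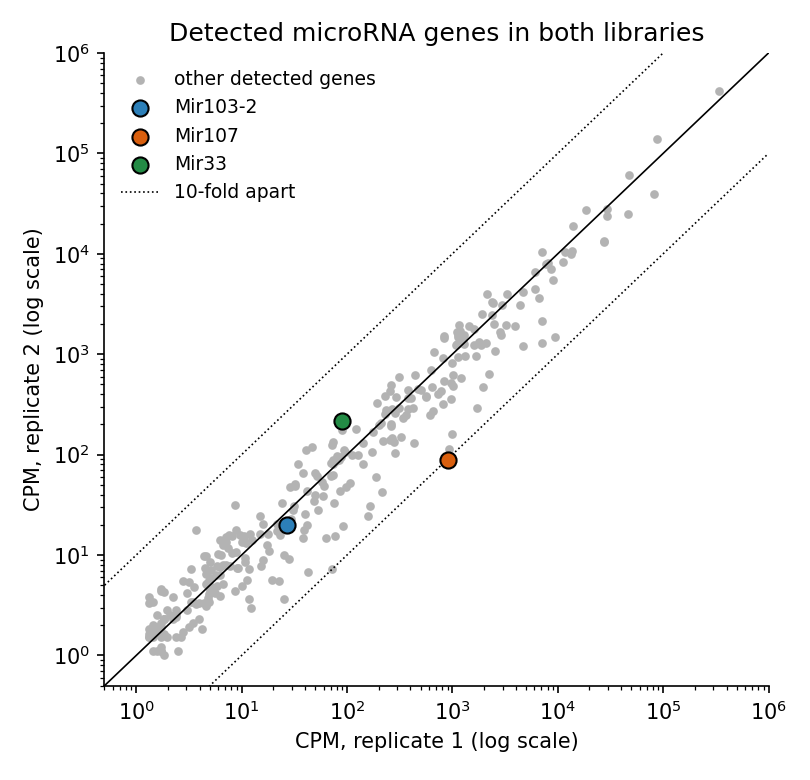
CPM in replicate 1 (horizontal axis) and replicate 2 (vertical axis), both on log scales, for the 314 detected genes, with a solid line where the libraries are equal and dotted lines 10-fold away. Mir107 lies just past the lower dotted line, Mir33 above the solid line and Mir103-2 close to it.

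The genes most like each member were sought by the distance between genes in log2 CPM of both libraries. Mir107 was nearest to Mir20a of the miR-17-92 cluster (distance 0.36; 923 and 114 CPM), then to Mir98 (0.86; 989 and 160 CPM) and Mirlet7f-2 (1.20; 436 and 129 CPM), which both lie in introns of Huwe1. All 3 were higher in replicate 1 by the exact test, yet none reached the ratio of Mir107. Mir33 was nearest to Mir142 (0.30; 89.0 and 178 CPM), Mir3102 (0.52; 123 and 181 CPM) and Mir101a (0.77; 72.9 and 134 CPM), all 3 higher in replicate 2. Mir103-2 was nearest to Mir7-1 (0.15; 29.5 and 20.6 CPM), an intronic gene of Hnrnpk, then to Mir199a-2 (0.24; 29.3 and 22.8 CPM) and Mir1249 (0.31; 21.6 and 20.4 CPM). Mirlet7f-2, Mir101a, Mir7-1 and Mir199a-2 share at least 20 bases with another hairpin, so their counts are uncertain. With 2 libraries, such likeness says only that level and ratio were close.

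Some markers of other cell types also differed between the libraries. The endothelial marker Mir126a had 217 CPM in replicate 1 and 42.9 in replicate 2, the direction of Mir107. The 4 blood markers, 2 of them detected and none at 0, summed to 101 and 183 CPM. Mir142 alone had 89.0 and 178 CPM, the direction of Mir33. What was left of the blood sum was larger in replicate 1, so the list had no common direction. Whether other cells contributed to the members' ratios was not tested.

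Intronic microRNA genes as a class offered a frame for the members. Of 772 microRNA genes wholly inside an intron of a protein-coding gene on the same strand, 139 were detected (18.0%), against 175 of 1430 other genes (12.2%). The median level of the detected genes was 46.1 CPM for intronic and 54.8 CPM for other genes. By mean level Mir107 was at place 34, Mir33 at 52 and Mir103-2 at 80 of the 139. By ratio toward replicate 1 Mir107 was first, Mir103-2 at place 50 and Mir33 at place 135. The test called 95 of the intronic genes (68.3%) and 114 of the others (65.1%), both near the 66.6% of all detected genes.

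MicroRNAs known to act on cholesterol and lipid metabolism, a list of 19 that includes Mir33, were for the most part present. Of these, 15 were detected (78.9%, against 14.3% of all 2202 microRNA genes). Their median was 558 CPM, against 53.1 CPM over all detected genes. The list was chosen by name with earlier results of these data known, so these values describe the listed genes only. Mir33 stood at place 10 of the list. The list was led by Mir378a, from an intron of the mitochondrial coactivator gene Ppargc1b, with 112998 ± 36039 CPM, and by Mir27b with 7874 ± 1086 CPM. Next came Mir182, from a cluster known to be induced by SREBP-2, with 3624 ± 464 CPM, and Mir27a with 2580 ± 906 CPM (SD, n = 2 for each). Mir378a, Mir27a and Mir27b share at least 20 bases with another hairpin, so their counts are uncertain.

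The lipid list had no common direction between the libraries. The test called 12 of the 15 (80.0%, against 66.6% of all detected genes), with 5 higher in replicate 1 and 7 in replicate 2, and the median log2 ratio was −0.14 against 0.09 over all detected genes. Calls were more frequent among genes with more counts. Of the 187 genes with at least 100 counts in each library, which include all 15, 166 were called. The median absolute log2 ratio of the 15 was 0.28, against 0.51 over all detected genes. Mir378a was 1.58-fold higher in replicate 2, the direction of Mir33, and Mir182 1.20-fold higher there. Mir27a and Mir27b were 1.66-fold and 1.22-fold higher in replicate 1. The 4 genes not detected were Mir144, with 26 and 7 counts, the liver microRNA Mir122 with 8 and 4, Mir223 with 2 and 1, and Mir758 with none.

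A list of 18 microRNAs tied to insulin action and glucose uptake, chosen in the same way, includes Mir107 and both Mir103 genes. Of the 18, 12 were detected (66.7%, against 14.3% of all 2202 microRNA genes), with a median of 484 CPM. Mir107 stood at place 6 and Mir103-2 at place 10. The list was led by Mir143 with 35574 ± 15314 CPM, Mir29a with 5311 ± 1163, Mir221 with 2905 ± 1429 and Mir145a with 2193 ± 419 (SD, n = 2 for each). The test called 10 of the 12 (83.3%), with 8 higher in replicate 1 and 2 in replicate 2, where 66.6% of all detected genes were called, 38.2% higher in replicate 1 and 28.3% in replicate 2. Of the 187 genes with at least 100 counts in each library, 166 were called. Mir29b-2, with 61 and 103 counts, and Mir29b-1, with 47 and 62, are not among these 187 and were not called. The median absolute log2 ratio of the 12 was 0.44, against 0.51 over all detected genes. With Mir107 and Mir103-2 left out, 8 of 10 were called, 6 higher in replicate 1 and 2 in replicate 2, and the median log2 ratio was 0.32. Mir143 was 1.88-fold and Mir221 2.07-fold higher in replicate 1, whereas Mir145a was 1.31-fold higher in replicate 2. Mir375 and Mir802, known from pancreatic islets and obese liver, had 1 and 12 counts and 2 and 0 counts.

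A last group was set by sequence after the values of the members had been seen. The seed of the miR-15/16 microRNAs, which restrain the cell cycle, is AGCAGCA, the same letters as bases 1 to 7 of miR-103-3p and miR-107-3p, so the seeds overlap with a shift of a single base. Of 11 such genes, 7 were detected, and all 7 were called higher in replicate 1. Of all detected genes 38.2% were, and of the 187 genes with at least 100 counts in each library 104 were. The ratios of the 7 ran from 1.46-fold for Mir497 to 3.48-fold for Mir15a, all below the 10.3-fold of Mir107. The most abundant was Mir322 with 27578 and 13017 CPM. The other 4 (Mir195b, Mir6342, Mir6353 and Mir6419) had no count in either library. Mir15b and Mir16-2 both lie in introns of Smc4, and Mir497 and Mir195a lie close together on chr11. The 7 detected genes are thus not all separate loci. Mir16-1 and Mir16-2 share at least 20 bases with another hairpin, so their counts are uncertain.

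**Figure D5:**
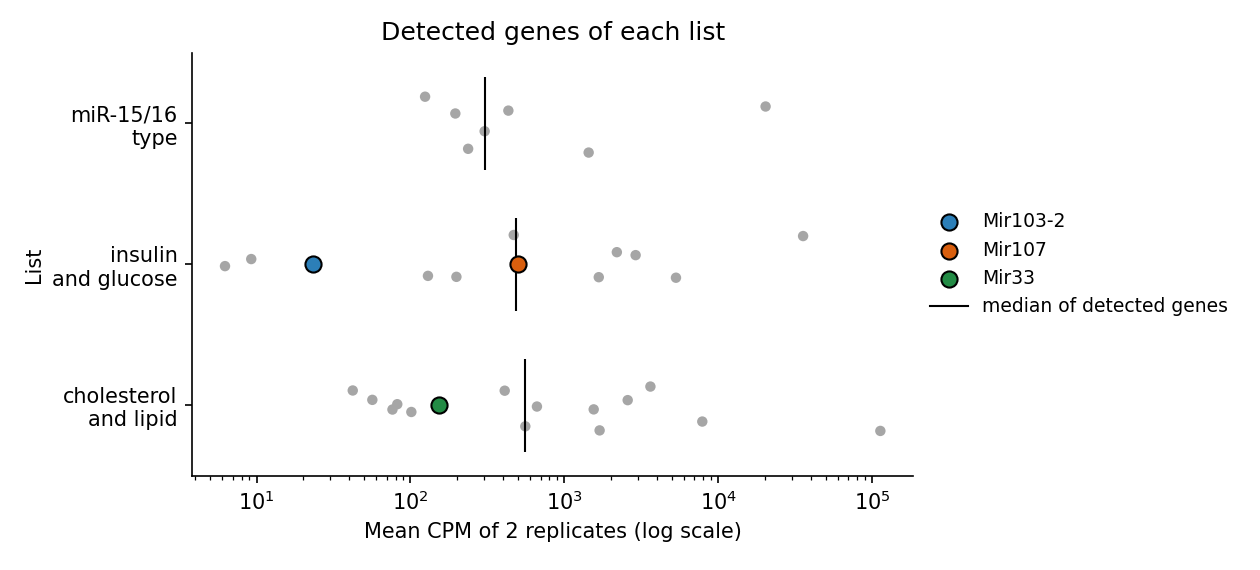
Mean CPM of both replicates on a log axis for the detected genes of the cholesterol and lipid, the insulin and glucose, and the miR-15/16-type lists, with members in colour and a line at each list's median (558, 484 and 304 CPM). Mir33 and Mir103-2 lie below the median of their list and Mir107 just above its own.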

How the data were processed

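MicroRNA sequencing libraries of 2 replicates were analysed. The deposited tables hold whole-number read counts per microRNA gene, for either strand, the sense strand and the antisense strand, and show no sign of normalization by the authors. Per the labels' protocols, adapters were trimmed. Reads were counted on mm10 with GENCODE M21, per the deposited notes, and an aligner or counter is not given in the sources used. The column layout is that of STAR's gene counts, in which reads that fit several places enter no gene. The 4 entries that name no gene (50.6% of reads in replicate 1, 46.5% in replicate 2) were left out of totals and tests. The members and lists were chosen with earlier results of these data known. All 2202 identifiers matched M21.

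CPM was computed here over assigned sense counts. Intervals are exact Poisson or Clopper-Pearson (95%). The binomial test ran across all 314 genes with at least 10 counts in each library (scipy 1.17.1). It was tested on simulated counts that varied by counting error only, as the test assumes. Those counts cannot show how the test behaves with spread between libraries. With 1 group, edgeR's quasi-likelihood test had no contrast to fit. The alternatives were either-strand counts, edgeR 4.0.16 TMM factors, DESeq2 1.42.0 size factors, all reads as denominator, minimums of 1 and 100 counts, 1 or 10 CPM added, each replicate left out and, added after seeing the data, totals without Mir206. Hairpins were folded with RNAfold 2.7.2 and aligned with Biopython 1.88. Named genes were the members, the 3 genes nearest to each detected member, each list's 4 most abundant genes of at least 10 CPM and any gene sharing a member's seed. Outside this rule, and after values were seen, the text names cell type markers, neighbours in level, list genes that were not detected, the miR-15/16-type genes and Gm23935.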

Additional observations from a re-analysis of the deposited data

Results flagged for a closer look

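Reads that fit more than 1 place were used for no gene level, and they are listed here as signal outside the gene levels. Over all microRNAs and other sequences they numbered 3378438 in replicate 1 and 3295854 in replicate 2. How many came from miR-103-3p or from short miR-107-3p reads cannot be read from the tables.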

How the results depend on the processing

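The ratios of Mir107 and Mir33 kept their direction and stayed past the threshold under each alternative scaling, strand column, minimum count and denominator, and kept their direction with 1 or 10 CPM added: Mir107 between 3.18 and 3.36 and Mir33 between −1.18 and −1.45 on the log2 scale. Mir103-2 stayed past the threshold except with totals without Mir206, where its log2 ratio was 0.25 (adjusted p = 0.113 in the exact binomial test; 0.00399 to 0.0459 over the other alternatives tested). With those totals, mean levels were 37.3 CPM for Mir103-2 and 255 CPM for Mir33, and the log2 ratio of the summed Mir103-1, Mir103-2 and Mir107 counts was 2.93. With all reads as denominator that sum's ratio was 2.99 and Mir103-2 had a mean of 11.9 CPM. These shifts follow from the denominators. Without replicate 1 or replicate 2, a mean is the other library's value: 88.8 or 911 CPM for Mir107, 218 or 90.2 for Mir33, 19.9 or 26.8 for Mir103-2, 0.507 or 2.51 for Mir103-1 and 109 or 940 for the sum. A minimum of 1 count added Mir103-1 to the calls. Counts of 19 and 5 leave the Mir103-1 ratio a wide interval. No paired analysis was possible because there is 1 group.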
